A study of Mus musculus with 6 samples.

Results

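The genes described here are those of the proteasome, taken as every gene on a one-symbol probe set whose symbol begins with Psm, a letter from a to g and a digit. The rule used no measured value and found 49 of the 18193 genes on the arrays. Of these, 47 encode proteasome proteins and 2, Psmc3ip and Psme3ip1, match by spelling only. They comprise 14 constitutive core genes, 3 immunoproteasome genes, 17 genes of the 19S cap, 3 activators and 1 inhibitor, 7 assembly chaperones and 2 core genes of other tissues. Psme2 and Psme2b share a probe set listed with both symbols and were not analysed here. All 49 gene identifiers and symbols were found unchanged in the RefSeq gene table.

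The cells were bulge epithelial cells of mouse vibrissa hair follicles (HFs) from 7 to 8 weeks old animals, and the sources used here do not say which of the study's strains gave the cells for the arrays. According to the series design, isolated cells were split into an NFFSE and an NFFS culture, the experiment was repeated to a total of 3, and the cultures were kept in 3D atelocollagen for 6 days. The labels do not say whether a replicate number marks the same isolation in both media. Both media contained Noggin, an inhibitor of BMP signaling, FGF-7, FGF-10 and an agonist of the sonic hedgehog pathway. NFFSE medium also contained EGF, and NFFS medium did not, so the comparison asks how the culture with EGF differed from that without it. The labels name no genotype and no sex, and no uncultured cells were used here. This gave 6 Affymetrix arrays, 3 for each medium, which the labels call biological replicates.

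The proteasome is the large protease that degrades most short-lived and damaged proteins that carry ubiquitin chains. Its barrel, the 20S core particle, is built of outer alpha rings and inner beta rings, and only some of the beta subunits cut peptide bonds. The 19S cap recognizes ubiquitin, removes it, unfolds the substrate with a ring of ATPases and feeds it into the core. Immune cells and cells exposed to interferon gamma exchange the cutting subunits for those of the immunoproteasome, which makes peptides suited to MHC class I. In the skin, HFs are known for low MHC class I presentation.

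Of the 49 genes, 9 were higher in NFFSE-cultured cells, 4 were lower and 36 were not called by limma with Benjamini-Hochberg adjustment over all genes at a threshold of 0.05. This is 26.5% of the 49 called in either direction, and 26.5% of all genes tested were called. By direction, 18.4% of the 49 were called higher, against 11.1% of all genes, and 8.16% were called lower, against 15.4% of all genes. Of the 47 that encode proteasome proteins, 9 were higher (19.1%) and 3 lower (6.38%), or 25.5% called. The NFFSE arrays lay entirely above the NFFS arrays for 18 of the 49 genes (18.5% of all genes) and entirely below for 8 (22.2% of all genes), and 40.8% of all genes had arrays without overlap in either direction. The median log2 difference, NFFSE minus NFFS, was 0.19 over the 49 genes, with 37 differences above 0 and 12 below, and -0.012 over all genes. The share of calls was thus near that of the arrays as a whole, and the classes differed in which genes lay on which side.

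**Figure D1:**
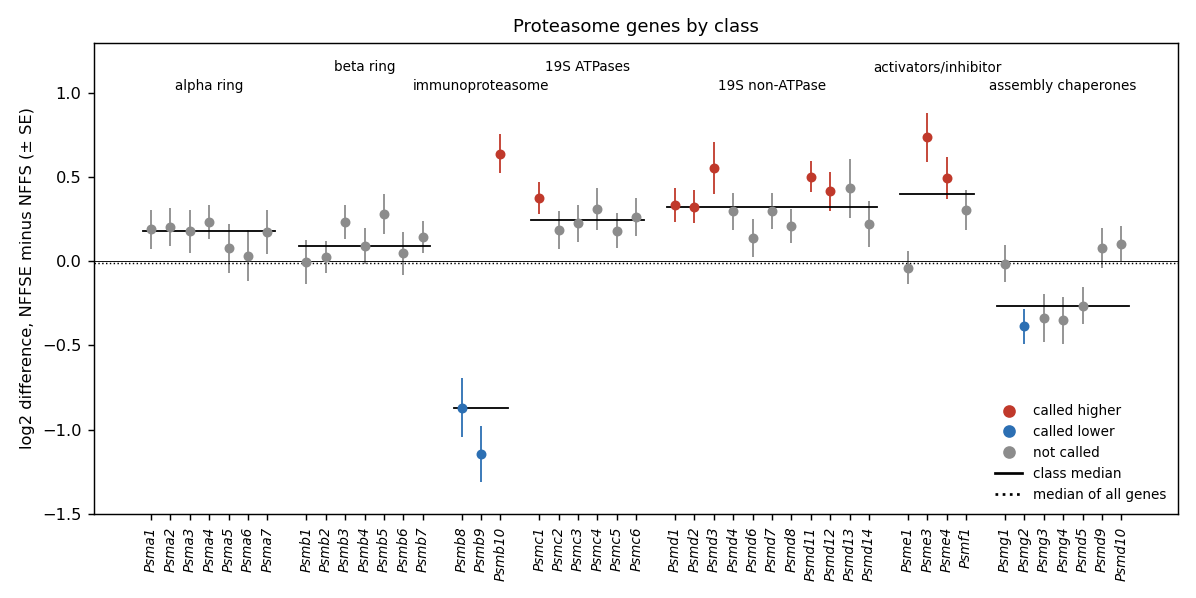
Log2 difference (NFFSE minus NFFS, vertical axis) of each proteasome gene by class, with bars of 1 SE of the limma fit; the 2 core genes of other tissues and the 2 matched by spelling are not drawn. The 17 cap genes all lie above 0, Psmb8 and Psmb9 lie farthest below, and Psmb10 lies above 0 at 0.64.

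The immunoproteasome genes moved in opposite directions. Psmb9, which encodes the cutting subunit that replaces Psmb6, had signals of 240.5, 194 and 260.4 in NFFSE replicates 1, 2 and 3 and 467, 504 and 559.7 in NFFS replicates 1, 2 and 3. All NFFSE arrays lay below all NFFS arrays, and the signal fell by 1.15 ± 0.169 on the log2 scale (SE, n = 3 arrays a medium, limma adjusted p = 0.00069), which is 2.21-fold. Psmb8, whose product replaces Psmb5, had signals of 271, 343 and 356 in NFFSE and 668, 622 and 486 in NFFS. Here too the arrays of the media did not overlap, and the signal fell by 0.87 ± 0.175 (limma adjusted p = 0.0043), or 1.83-fold. Psmb10, whose product replaces Psmb7, gave 1012, 1054 and 1008 in NFFSE against 672, 709.8 and 595 in NFFS. Its NFFSE arrays were all above its NFFS arrays, and it rose by 0.64 ± 0.117 (limma adjusted p = 0.0026), or 1.56-fold. The calls of these 3 genes were present whichever array was left out. The call of Psmb8 was lost with the methods' t-test (adjusted p = 0.0537) and when its dim other probe set was averaged in (difference -0.58, limma adjusted p = 0.20).

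Psmb9 and Psmb8 are neighbours on mouse chromosome 17, in the MHC region, in the order Psmb9, Tap1, Psmb8 and Tap2. Their promoters are shown because all 4 genes of this cluster were called lower and because Psmb9 and Tap1 are read in opposite directions from the same stretch. The RefSeq windows (GRCm38.p6), from 250 bases before the transcription start to 50 after it, are chr17:34187281-34187580 on the minus strand for Psmb9 and chr17:34197945-34198244 on the plus strand for Psmb8. The window of Tap1, chr17:34187306-34187605 on the plus strand, shares 275 bases with that of Psmb9. Capitals mark a CCAAT box on the opposite strand in Psmb9, which begins at base -8 from the start, and a gamma-activated site in Psmb8, which begins at base -97.
Psmb9: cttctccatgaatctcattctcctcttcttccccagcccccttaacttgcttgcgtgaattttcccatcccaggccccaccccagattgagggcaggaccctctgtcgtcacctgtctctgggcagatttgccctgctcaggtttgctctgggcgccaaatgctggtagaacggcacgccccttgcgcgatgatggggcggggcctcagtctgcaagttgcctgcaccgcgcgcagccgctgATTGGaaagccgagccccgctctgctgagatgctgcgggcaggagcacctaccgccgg
Psmb8: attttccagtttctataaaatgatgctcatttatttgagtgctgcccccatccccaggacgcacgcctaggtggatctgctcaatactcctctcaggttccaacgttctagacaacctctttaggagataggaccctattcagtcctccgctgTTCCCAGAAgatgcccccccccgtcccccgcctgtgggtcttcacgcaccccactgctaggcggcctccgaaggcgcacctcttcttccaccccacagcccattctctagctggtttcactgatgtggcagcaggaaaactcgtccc

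The gamma-activated site was searched as TTCNNNGAA on both strands and is present in the windows of 9.55% of the 27025 genes that have one in RefSeq. Of the 49 genes, 41 had a window, including the 2 matched by spelling. The site was in 3 of these 41, namely Psmb8, Psmd2 and Psmg1. The core of the interferon-stimulated response element, searched as GAAA, any 2 bases and GAAA again, was in 5 of the 41 (Psmb3, Psmd4, Psmd9, Psme1 and Psmg4) and in 3.99% of all genes with a window. These letters were not in the windows of the 3 immunoproteasome genes. A match describes the letters alone.

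The constitutive counterparts of these subunits were not called. Psmb5, the chymotrypsin-like subunit, had signals of 6991, 7520.4 and 7631 in NFFSE and 5340.0, 7085 and 5909 in NFFS. Psmb6, the caspase-like subunit, had 5902, 6229.6 and 6247 in NFFSE and 5024, 7119.6 and 5809.5 in NFFS. Psmb7, the trypsin-like subunit, had 7775, 7949 and 7246 in NFFSE and 6776, 7036 and 6962 in NFFS. The arrays of the media overlapped for Psmb5 and Psmb6 and did not for Psmb7, where the gap was narrow. The log2 differences were 0.28 ± 0.119 for Psmb5, 0.05 ± 0.129 for Psmb6 and 0.14 ± 0.0935 for Psmb7 (SE, limma adjusted p = 0.12, 0.84 and 0.31).

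A ratio of a pair of genes on the same array does not depend on a factor that multiplies all signals of that array. It can change under a scaling that depends on intensity, such as quantile normalization, after which the ratios were not computed. The log2 ratio of Psmb9 to Psmb6 was lower in NFFSE by a difference of -1.19, that of Psmb8 to Psmb5 by -1.15, and that of Psmb10 to Psmb7 was higher by 0.50. Within the immunoproteasome, the log2 ratio of Psmb10 to Psmb9 differed by 1.79 and that of Psmb10 to Psmb8 by 1.51, both higher in NFFSE. In each of these 5 ratios the arrays of the media did not overlap. The ratio of Psmb9 to Psmb8 differed by -0.28, and its arrays overlapped. In the exact two-sided permutation test the 5 ratios gave p = 0.1, the smallest that 3 against 3 arrays can give, and adjusted p = 0.12 over the 6 ratios, and the ratio of Psmb9 to Psmb8 gave p = 0.5.

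**Figure D2:**
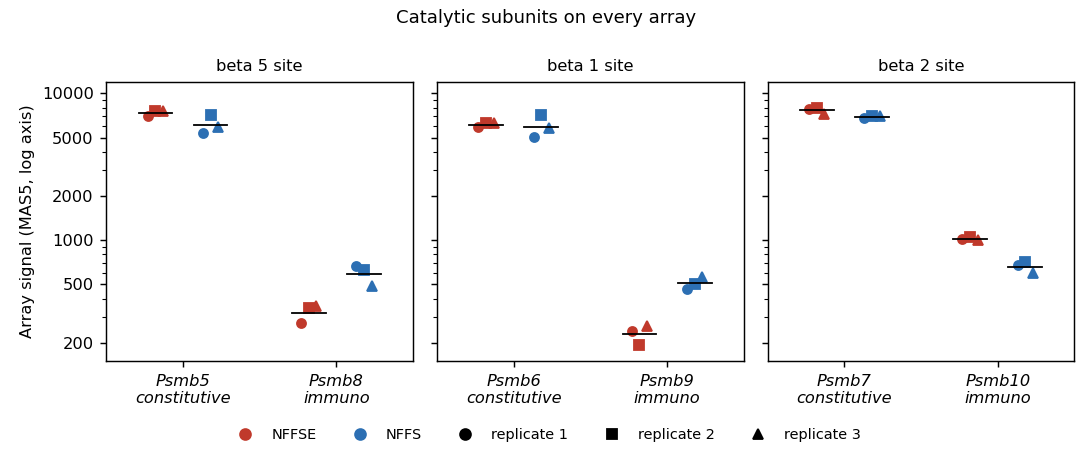
Array signal (vertical log axis, no unit) of the constitutive and immunoproteasome subunits of each cutting site, with 1 point per array, symbols for the replicate numbers and lines at the geometric means of 3 arrays. The immunoproteasome panels show Psmb8 and Psmb9 lower and Psmb10 higher in NFFSE with no overlap; heights of different genes come from different probes and are not comparable.

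None of the 14 constitutive core genes was called by limma, against 26.5% of all genes. At an unadjusted p under 0.05 there were 3, and the share of all genes at that level was not counted. The methods' t-test gave the same counts for the core, 0 adjusted and 3 unadjusted. The median log2 difference of the core was 0.16, with 13 of 14 above 0 and a range from -0.005 to 0.28, but it was -0.038, with 5 of 14 above 0, after quantile normalization. With each array centred on its median, Psma4, Psmb3 and Psmb5 were called (limma adjusted p = 0.041, 0.036 and 0.038). Thus the sign of the core as a group depended on the scaling.

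In the alpha ring, which gates the entry to the barrel, the differences of the 7 genes lay between 0.03 and 0.23. Psma4 had the smallest p of the ring, with signals of 9237, 9981 and 10004 in NFFSE and 7732, 8959 and 8224 in NFFS (difference 0.23 ± 0.101, limma adjusted p = 0.13). Psma2 had 11038, 11748 and 11742 in NFFSE and 8733, 10966 and 10411 in NFFS (0.20 ± 0.113, adjusted p = 0.23). For these 2 genes the arrays did not overlap, and for the other 5 of the ring they did, while 40.8% of all genes had no overlap. Psma1 had 9368, 8670.2 and 9907 in NFFSE and 7122, 8947 and 8492 in NFFS (0.19 ± 0.116, adjusted p = 0.28). Psma3 had 12462, 12130.3 and 13208 in NFFSE and 9522, 13114 and 11037 in NFFS (0.18 ± 0.127, adjusted p = 0.36). In both, NFFS replicate 1 was lowest and NFFS replicate 2 reached into the NFFSE range.

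Among the beta subunits that do not cut, Psmb3 gave 7272, 7143 and 6741 in NFFSE and 5445, 6360.0 and 6197 in NFFS (0.24 ± 0.101, limma adjusted p = 0.12), without overlap. Psmb4 gave 13138, 13714 and 13990.4 in NFFSE and 11577, 13977 and 12939 in NFFS (0.09 ± 0.107, adjusted p = 0.61). Psmb2 and Psmb1 had differences of 0.03 ± 0.0934 and -0.01 ± 0.132, with overlap. Psmb2 had 5235, 5099 and 4888 in NFFSE and 4758, 5204 and 4996 in NFFS. Psmb1 had 7073, 7308 and 7571 in NFFSE and 6210.4, 8880.2 and 7170.3 in NFFS. In Psmb1, as in Psmb6, the highest of the 6 arrays was NFFS replicate 2.

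That array was the highest of the NFFS arrays for 14 of 14 core genes and 14 of 17 cap genes, and NFFS replicate 1 was the lowest for 14 of 14 and 12 of 17. The median of the core relative to each gene's own mean was 0.061, 0.042 and 0.10 on the log2 scale in NFFSE replicates 1, 2 and 3 and -0.27, 0.083 and -0.044 in NFFS replicates 1, 2 and 3. The spread of the NFFS arrays was thus wider than the distance between the media. Without NFFS replicate 2, 1 core gene was called, Psmb5 (limma adjusted p = 0.0163).

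**Figure D3:**
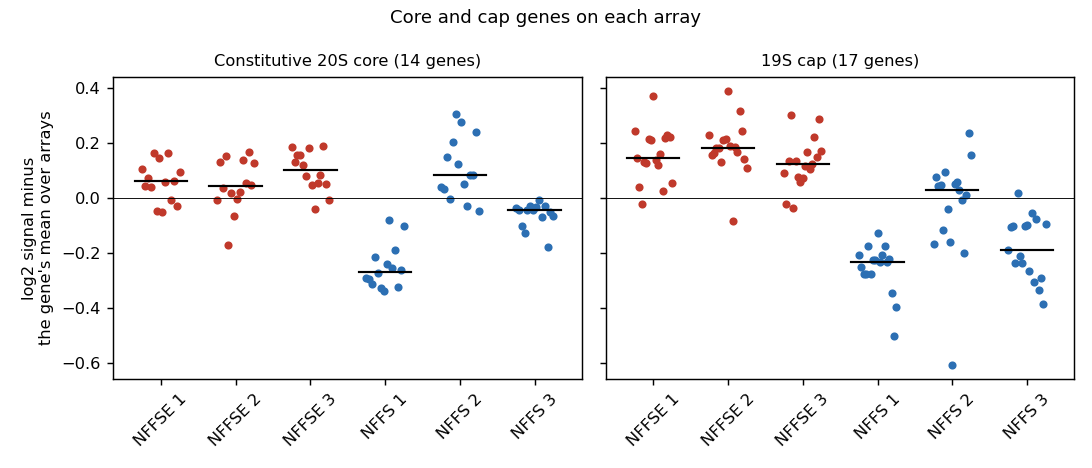
Log2 signal of each core gene (left) and cap gene (right) minus that gene's mean over the 6 arrays (vertical axis), with 1 point per gene and a line at the median of each array. The NFFSE arrays lie close together, and among the NFFS arrays replicate 2 has the highest medians (0.083 for the core and 0.029 for the cap) and replicate 1 the lowest.

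All 17 differences of the 19S cap were above 0, from 0.14 to 0.55 with a median of 0.30. By limma 6 genes (35.3%) rose and 0 fell, against 11.1% and 15.4% of all genes. After quantile normalization 15 of 17 were above 0, with a median of 0.18 and 4 calls, and with arrays centred on their medians there were 12 calls. The count moved with single arrays. It was 1 without NFFSE replicate 1, 1 without NFFSE replicate 2, 5 without NFFSE replicate 3, 3 without NFFS replicate 1, 12 without NFFS replicate 2 and 3 without NFFS replicate 3. It was 1 without the intensity trend of limma and 3 with the methods' t-test. The number of all genes called higher moved too, from 2021 to between 1418 and 2110 with an array left out. That number was 1339 without the trend, 1283 with the methods' t-test, 2320 after quantile normalization and 3052 with centred arrays.

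The cap and the core were also set side by side within each array. The median log2 deviation of the cap minus that of the core was 0.084, 0.14 and 0.022 in NFFSE replicates 1, 2 and 3 and 0.036, -0.054 and -0.15 in NFFS replicates 1, 2 and 3. NFFS replicate 1 lay above NFFSE replicate 3, so the media overlapped in this measure.

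Of the 6 ATPases, which unfold the substrate, 1 was called (16.7%, against 26.5% of all genes). Psmc1 had signals of 3834, 3793 and 3444 in NFFSE and 2801, 2882 and 2837 in NFFS. The arrays did not overlap, and Psmc1 rose by 0.38 ± 0.0946 on the log2 scale (limma adjusted p = 0.014), or 1.3-fold. The call was lost without NFFSE replicate 1 (adjusted p = 0.0584) and without NFFSE replicate 2 (0.0703). The mean over its probe sets was 1.70 (0.0027), but its only other probe set was dim. That probe set had 20.8, 14.7 and 17.9 in NFFSE and 1.1, 5.2 and 1.8 in NFFS, all at background. Psmc4 had 7849.7, 9039.9 and 9816 in NFFSE and 6580.3, 8218 and 6764 in NFFS (0.31 ± 0.125, adjusted p = 0.10). Psmc6 had 7089.6, 7106 and 7126 in NFFSE and 5357, 6922 and 5602 in NFFS (0.26 ± 0.115, adjusted p = 0.13), with no overlap, although its other probe sets differed by -0.38 and -0.26. Psmc3 had 7665, 8362 and 8176 in NFFSE and 6149, 7679.7 and 6943 in NFFS (0.23 ± 0.11, adjusted p = 0.17). Psmc2 and Psmc5 had differences of 0.19 and 0.18 and overlapped.

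Of the 11 non-ATPase subunits, which hold the cap together and bind and trim ubiquitin chains, 5 rose (45.5%, against 11.1% of all genes). Psmd11, a scaffold subunit, had signals of 7226, 7739 and 7258 in NFFSE and 5335, 5411 and 4926 in NFFS. It rose by 0.50 ± 0.095 (limma adjusted p = 0.0030), or 1.42-fold, with no overlap, and it was called whichever array was left out. Of its other 4 probe sets that were not dim, 1 was called higher (0.55, adjusted p = 0.00296) and the others differed by 0.20, 0.34 and 0.34 without a call. The mean over all of its probe sets, 3 dim ones included, was 0.22 and was not called (adjusted p = 0.518).

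Psmd12, a scaffold subunit of the cap's lid, had 4685, 4738 and 4433 in NFFSE and 3148, 4025 and 3268 in NFFS. It rose by 0.42 ± 0.114 (limma adjusted p = 0.022), or 1.33-fold. Psmd3, also of the lid, had 3249, 3293 and 2641 in NFFSE and 2302, 1649 and 2349.5 in NFFS. It rose by 0.55 ± 0.153 (adjusted p = 0.022), or 1.47-fold. Psmd2, a large subunit of the base that docks ubiquitin carriers, had 8671, 8695 and 7799 in NFFSE and 6400.1, 6702 and 6983 in NFFS, and it rose by 0.32 ± 0.098 (adjusted p = 0.034), or 1.25-fold. For Psmd12, Psmd3 and Psmd2 the arrays of the media did not overlap. Psmd1, the other large base subunit, rose by 0.34 ± 0.102 (adjusted p = 0.034), or 1.26-fold, also without overlap.

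When arrays were left out in turn, these 4 calls were lost more often than that of Psmd11. Psmd12 lost its call without NFFSE replicate 1, NFFSE replicate 2, NFFS replicate 1 or NFFS replicate 3 (limma adjusted p = 0.069, 0.0879, 0.0683 and 0.0834), and Psmd2 without the same arrays (0.111, 0.135, 0.0783 and 0.0653). Psmd3 lost it without NFFSE replicate 1 (0.0794) or 2 (0.0955). Psmd1 lost it without any array but NFFS replicate 2 (0.0514 to 0.13). The mean over all probe sets gave -0.30 for Psmd2 (adjusted p = 0.644), whose only other probe set was dim.

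The other 6 non-ATPase genes were not called. Psmd4, a ubiquitin receptor, and Psmd7, the partner of the deubiquitinase Psmd14, both had differences of 0.30, with no overlap (limma adjusted p = 0.075 and 0.070). Psmd8 had 0.21 without overlap, and Psmd13, Psmd14 and Psmd6 had 0.43, 0.22 and 0.14 with overlap. For Psmd13, NFFS replicate 2 (3072) lay within the NFFSE signals and the other NFFS arrays (1839 and 1997) far below, and without NFFS replicate 2 its difference was 0.66 (adjusted p = 0.00137).

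Among the activators, which open the core in place of the cap, Psme3 and Psme4 rose and Psme1 did not pass the test. Psme3, which encodes the nuclear activator PA28 gamma, had signals of 1019, 1163 and 857 in NFFSE and 615, 659.9 and 539 in NFFS. It rose by 0.74 ± 0.146 (limma adjusted p = 0.0039), or 1.67-fold, with no overlap, and was called whichever array was left out. Its other probe set that was not dim, with 296, 254 and 242 in NFFSE and 289.5, 250.2 and 251 in NFFS, differed by 0.0015 (adjusted p = 0.997). The mean over its probe sets, a dim one included, was 0.24 and was not called (adjusted p = 0.769), and the methods' t-test gave Psme3 an adjusted p of 0.0511.

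Psme4, which encodes the activator PA200, had 6345, 5060.1 and 5549 in NFFSE and 4431, 3449 and 4161 in NFFS. It rose by 0.50 ± 0.127 (limma adjusted p = 0.016), or 1.41-fold, with no overlap, and lost its call without NFFSE replicate 1 (0.0684). The methods' t-test did not call Psme4 (adjusted p = 0.102). The mean over all of its probe sets, a dim one included, was -0.51 without a call (0.171). Another 2 strong probe sets of Psme4 differed by 0.40 each (adjusted p = 0.033 and 0.057), whereas 2 weak ones differed by -0.95 and -1.45 (0.0818 and 0.0208). Psme1, an interferon-inducible subunit of PA28, had 3795, 4064 and 3978 in NFFSE and 3735, 4188 and 4254 in NFFS. Its arrays overlapped (difference -0.04 ± 0.0979, adjusted p = 0.83).

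Psmf1, which encodes the core inhibitor PI31, gave different results by probe set. The brightest had 765, 791 and 765 in NFFSE and 679, 579 and 627 in NFFS, a difference of 0.30 ± 0.119 without overlap (limma adjusted p = 0.092). Another had 161, 179 and 156 in NFFSE and 379, 326 and 344 in NFFS, a difference of -1.08 (adjusted p = 9.16e-04). The remaining 2 differed by -0.95 and -0.86 (0.00176 and 0.0518). All 4 probe sets of Psmf1 separated the media, 1 upward and 3 downward, and their mean was -0.65 (adjusted p = 0.0122). Which transcripts the probe sets detect was not tested.

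**Figure D4:**
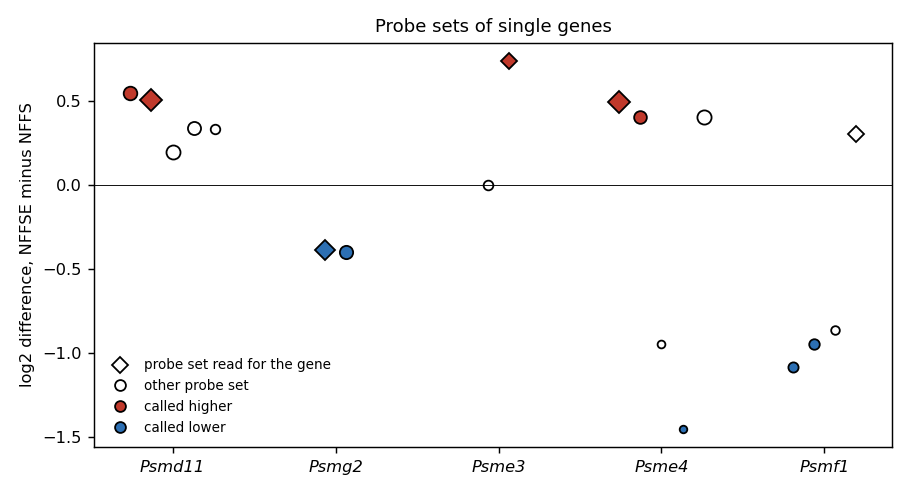
Log2 difference (NFFSE minus NFFS, vertical axis) of every probe set that was not dim for 5 genes; the diamond is the one read for the gene, the area of a marker grows with its mean signal, and filled markers were called when all probe sets were fitted. The probe sets of Psmg2 lie together, those of Psme3 lie at 0.74 and 0.0015, and those of Psme4 and Psmf1 lie on both sides of 0.

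Among the 49 genes, 27 had several probe sets and 22 had 1. Of the 54 probe sets not read for a gene, 20 were dim, and of the other 34, 20 had a difference of the same sign as the one read and 14 the opposite sign.

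The assembly chaperones build the core and cap and leave before the particle is complete. Their median difference was -0.26, with 5 of 7 below 0 and 1 called (14.3%, against 26.5% of all genes). Psmg2, which with Psmg1 assembles the alpha ring, had signals of 2627, 2611 and 2499.7 in NFFSE and 3408, 3047 and 3683 in NFFS. The arrays did not overlap, and Psmg2 fell by 0.39 ± 0.104 (limma adjusted p = 0.019), or 1.31-fold. Of its other 2 probe sets, the bright one gave a difference of -0.40 (adjusted p = 0.0282) and the dim one 0.62 (0.335), and the mean of all was -0.054 without a call (0.808). With arrays centred on their medians the difference was -0.19 (0.281), and the call was lost without NFFSE replicate 1, 2 or 3 or NFFS replicate 3 (0.0507, 0.066, 0.0697 and 0.0844). The call of Psmg2 was also lost with the methods' t-test (adjusted p = 0.0543) and without the intensity trend of limma.

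Its partner Psmg1 had a difference of -0.01. Psmg3 and Psmg4, the other pair of alpha ring chaperones, were not called. Psmg4 had 862, 685 and 742 in NFFSE and 838, 1034 and 1046 in NFFS (-0.35 ± 0.139, limma adjusted p = 0.096). Psmg3 had 829, 761 and 632 in NFFSE and 838, 1043 and 921 in NFFS (-0.34 ± 0.141, adjusted p = 0.11). Both had their lowest NFFS signal in replicate 1, which was within the NFFSE signals of Psmg4 only. Of the chaperones of the ATPase ring, Psmd5 had 1305, 1243 and 1128 in NFFSE and 1587, 1368 and 1459.5 in NFFS (-0.26 ± 0.112, adjusted p = 0.12), without overlap. Psmd9 and Psmd10 differed by 0.08 and 0.11.

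The core genes of other tissues were near background. Psma8, the alpha subunit of testis, had 1.6, 3.4 and 2.6 in NFFSE and 4.8, 23.1 and 38.8 in NFFS (limma adjusted p = 0.053), and Psmb11, the cutting subunit of thymic epithelium, had 25.5, 37.9 and 26.8 in NFFSE and 18.9, 36.8 and 5.7 in NFFS (adjusted p = 0.41). The highest signal of a control transcript not present in mouse cells was 22.7, so most of these values lay at or near background, and no fold is given.

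The 2 genes matched by spelling were both lower on every NFFSE array. Psmc3ip, which takes part in meiotic recombination, had 430.0, 405 and 429.8 in NFFSE and 598, 638 and 679 in NFFS, and it fell by 0.60 ± 0.127 (limma adjusted p = 0.0060), or 1.51-fold. Psme3ip1, whose product binds Psme3, had 1736, 1723 and 1555 in NFFSE and 2036, 1884 and 1964 in NFFS (-0.23 ± 0.101, adjusted p = 0.13).

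Transcription of proteasome subunits is raised by the factor encoded by Nfe2l1, with its relative Nfe2l2 and small Maf partners, at antioxidant response elements. Of 12 regulators measured from a list of 13, 5 rose and 1 fell (50% called, against 26.5% of all genes). Nfe2l1 had signals of 2100.4, 1915 and 1908 in NFFSE and 1315, 1271 and 1227 in NFFS, and it rose by 0.63 ± 0.1 (limma adjusted p = 0.0010), or 1.55-fold. Nfe2l2 had 8202, 9035 and 8566 in NFFSE and 5934, 4499.9 and 5102 in NFFS, and it rose by 0.74 ± 0.118 (adjusted p = 0.0011). Maff, which encodes a small Maf protein, had 629, 622 and 766 in NFFSE and 200.5, 203 and 154 in NFFS and rose 3.63-fold (adjusted p = 4.17e-05). None of these arrays overlapped between the media.

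Mafk, another small Maf gene, had 442, 493 and 572 in NFFSE and 222, 243 and 196 in NFFS and rose 2.28-fold (limma adjusted p = 0.00055). Mafg rose by 0.53 and Ngly1, whose product activates the Nfe2l1 protein by removing its sugars, fell by 0.47 (adjusted p = 0.0031 and 0.0051); these 2 were named to complete the count after their values were seen. The mean over all probe sets gave differences of 0.15 for Nfe2l2 and 0.30 for Mafg (adjusted p = 0.646 and 0.18), and Ngly1 was not called with arrays centred on their medians (0.083).

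The core of the antioxidant response element was searched as TGACNNNGC on either strand. It was in the windows of 6 of the 41 genes with a window, and in 14.0% of all genes. The 6 were Psmb5, Psmb6, Psmc6, Psmd9, Psmd12 and Psme4. Of these 6 genes, Psmd12 and Psme4 were called higher and the others were not called. Their RefSeq promoter windows (GRCm38.p6) are shown as the ones of called genes that hold the letters. They are chr11:107479278-107479577 for Psmd12 and chr11:30771525-30771824 for Psme4, both on the plus strand. Capitals mark the match, which is on the opposite strand and begins at base -247 from the start in Psmd12 and at base -7 in Psme4.
Psmd12: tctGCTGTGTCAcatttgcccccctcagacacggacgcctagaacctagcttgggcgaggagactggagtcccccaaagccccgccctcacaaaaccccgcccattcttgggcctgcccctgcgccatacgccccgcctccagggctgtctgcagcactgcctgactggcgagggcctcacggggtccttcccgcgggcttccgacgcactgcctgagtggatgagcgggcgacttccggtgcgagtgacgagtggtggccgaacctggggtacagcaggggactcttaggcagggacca
Psme4: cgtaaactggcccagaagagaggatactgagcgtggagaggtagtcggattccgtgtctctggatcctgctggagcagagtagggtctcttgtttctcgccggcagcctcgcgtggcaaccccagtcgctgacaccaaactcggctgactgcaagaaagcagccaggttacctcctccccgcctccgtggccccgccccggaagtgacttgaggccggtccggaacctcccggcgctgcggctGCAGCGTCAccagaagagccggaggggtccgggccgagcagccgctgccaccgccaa

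The CCAAT box, searched as CCAAT on both strands, was in 16 of the 41 genes and in 41.1% of all genes. The 16 included 5 of 7 alpha ring genes and 2 of the 8 genes called higher that had a window. They also included the 2 genes matched by spelling. No window was found for Psma8, Psmb1, Psmb2, Psmb7, Psmc3, Psmd3, Psmd7 and Psmg2.

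Of 8 measured proteasome genes outside the naming pattern, 2 rose and 0 fell (25% called, near the 26.5% of all genes). Uchl5, a deubiquitinase bound to the cap, had signals of 3436, 3078 and 2727 in NFFSE and 1878, 2024 and 1929 in NFFS, and it rose by 0.66 ± 0.111 (limma adjusted p = 0.0015), or 1.58-fold, without overlap. Sem1, a small lid subunit, rose by 0.36 ± 0.118 (adjusted p = 0.046), a call lost without each array but NFFS replicate 2 (0.0659 to 0.152). Zfand2a and Usp14 differed by -0.35 and 0.24 (adjusted p = 0.0634 and 0.152).

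Of 10 measured genes that make ubiquitin chains or bring them to the proteasome, 3 rose and 0 fell. This is 30% called, near the 26.5% of all genes. Rad23b, a shuttle that binds ubiquitin chains and the cap, had 6556, 6791 and 5815 in NFFSE and 4581, 4486 and 4459.6 in NFFS, and it rose by 0.50 ± 0.0987 (limma adjusted p = 0.0040), although the mean over its probe sets gave -0.11 (0.598). Ufd1 and Faf1, partners of the segregase Vcp, rose by 0.36 and 0.31 (adjusted p = 0.0488 and 0.0465). Faf1 kept its call when NFFS replicate 2 was left out but not when another array was (0.0764 to 0.154). Ufd1 lost its call without NFFSE replicate 2 or 3 or NFFS replicate 1 or 3 (0.0893 to 0.169). The mean over all probe sets did not call Ufd1 (0.18, adjusted p = 0.24). Vcp differed by 0.29 (0.0737), but the mean over its probe sets was called lower, at -0.52 (0.00361), and no direction is given for it.

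The immunoproteasome supplies peptides for MHC class I. Of 12 genes of that route 4 fell and 2 rose (50% called, against 26.5% of all genes). B2m, the light chain of MHC class I, had signals of 7876, 8554 and 10050.4 in NFFSE and 15826, 17355 and 17581 in NFFS, and it fell by 0.94 ± 0.117 (limma adjusted p = 0.00023), or 1.93-fold. Nlrc5, the transactivator of MHC class I genes, had 63.1, 44.7 and 90.0 in NFFSE and 228, 249 and 209.6 in NFFS, and it fell by 1.85 ± 0.297 (adjusted p = 0.0011). Tap1, the peptide transporter that shares its start region with Psmb9, had 321, 324 and 387 in NFFSE and 678, 473 and 611 in NFFS, and it fell by 0.76 ± 0.171 (adjusted p = 0.0078). None of these arrays overlapped.

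Tap2, the other half-transporter and the neighbour of Psmb8, fell by 0.65 ± 0.15 (limma adjusted p = 0.0093) and was named for its place in the cluster. The methods' t-test did not call Tap1 or Tap2 (adjusted p = 0.0646 and 0.0871), and the mean over all probe sets gave -0.29 for Tap1 (0.652). Tapbpl, a peptide editor, had 458, 389 and 381 in NFFSE and 239, 268 and 215 in NFFS and rose by 0.77 ± 0.167 (adjusted p = 0.0066), and Erap1, a peptide trimming enzyme, rose by 0.46 (0.0462), a call lost without NFFSE replicate 1, 2 or 3 or NFFS replicate 3 (0.0733 to 0.161). Averaged over all probe sets, Tapbpl and Erap1 were not called (0.42 and 0.083, adjusted p = 0.225 and 0.78). Calr, Canx, Pdia3, Tapbp, H2-K1 and H2-D1 were not called. The MHC class I heavy chains H2-K1 and H2-D1 differed by -0.28 and -0.13 (adjusted p = 0.0652 and 0.384), and both were called lower after quantile normalization (-0.49 and -0.32, adjusted p = 0.00372 and 0.0179), H2-K1 also with dim genes left out (0.0363).

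Of 10 measured genes of the interferon route to the immunoproteasome, 2 rose and 1 fell (30% called, near the 26.5% of all genes). Jak2, a kinase of the interferon gamma receptor, had 866, 795 and 1103 in NFFSE and 2792, 2882 and 3182 in NFFS, and it fell by 1.69 ± 0.135 (limma adjusted p = 1.65e-05), or 3.23-fold. Irf1, a factor known to drive Psmb9 and Tap1, had 1696, 1489.8 and 2366 in NFFSE and 802, 1193 and 551 in NFFS, and it rose by 1.17 ± 0.26 (adjusted p = 0.0075), with no call by the methods' t-test (0.126). Jak1 rose by 0.46 ± 0.105 (adjusted p = 0.0083), and Irf9 differed by -0.65 (0.0511).

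**Figure D5:**
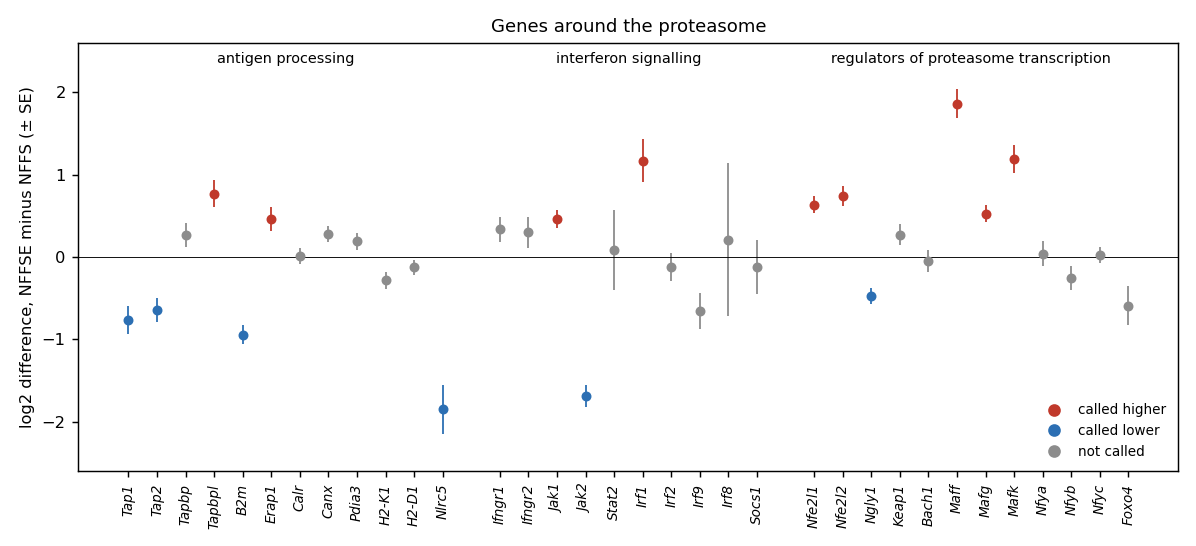
Log2 difference (NFFSE minus NFFS, vertical axis) of the measured genes for antigen processing, interferon signalling and the regulation of proteasome transcription, with bars of 1 SE of the limma fit. Nlrc5 and Jak2 lie lowest, at -1.85 and -1.69, and Maff highest, at 1.86.

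Leukocytes are rich in the immunoproteasome, and in these samples a smaller share of such cells and less RNA per cell cannot be told apart. Of 12 leukocyte markers, 0 were called by limma, against 26.5% of all genes. By limma 0 reached an unadjusted p under 0.05, against 1 by the methods' t-test. Their summed signal ranged from 533.6 to 618.5 in NFFSE and from 490.5 to 558.8 in NFFS, 9 of 12 were dim, and Cd52 and Cd3e were at background on all arrays. The defining marker Ptprc, which was dim, had 31.5, 29.5 and 21.8 in NFFSE and 10.1, 14.2 and 15.3 in NFFS (limma adjusted p = 0.183). The NFFSE arrays lay entirely above the NFFS arrays for 2 of the 12 markers, Ptprc and Csf1r, and entirely below for 0. Over all genes these shares were 18.5% and 22.2%. Of 8 fibroblast and dermal papilla markers, 3 fell (Col1a2, Thy1 and Vim), which is 37.5% against 15.4% of all genes. The differences of 4 markers lay below 0, the other being Dcn (-0.85, not called). Those of 4 lay above 0 without a call, namely Pdgfra (1.40), Lum (0.39), Col1a1 (0.28) and Col3a1 (0.06). Of the 8, 3 were dim (Col1a1, Col3a1 and Lum). The sum of the 8 ranged from 487 to 501.9 in NFFSE and from 691.4 to 906.5 in NFFS. The part of these cells in the results was not tested. Epithelial markers summed to between 121615.5 and 140028.5 in NFFSE and between 106681.2 and 120770.3 in NFFS, with none at background. Of these 8 markers 4 rose (Krt14, Itga6, Itgb4 and Epcam) and Krt15 fell 3.94-fold, so that the sum hides opposite changes. This is 62.5% called, against 26.5% of all genes. None of 5 endothelial and 6 melanocyte markers was called by limma, with 1 and 0 at an unadjusted p under 0.05 by limma and by the methods' t-test.

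As a measure of RNA quality, the Gapdh control probe sets at the 3' and 5' ends were compared. Their log2 difference (3' minus 5') averaged -0.37 ± 0.011 over the 3 NFFSE arrays and -0.62 ± 0.017 over the 3 NFFS arrays (mean ± SD, exact two-sided permutation test, p = 0.1, the smallest possible). That of Actb was 0.27 ± 0.019 in NFFSE and 0.33 ± 0.059 in NFFS (exact permutation p = 0.3). The part of RNA quality in the differences was not tested. Of all genes, 2021 were called higher and 2805 lower, so that 41.9% of calls were higher. With arrays centred on their medians 60.5% of calls were higher and the median of all genes moved from -0.012 to 0.19. Centring moves every gene alike, and relative to the median of all genes the core lay at 0.17 and the cap at 0.31. After quantile normalization the median of all genes was 0.067, and relative to it the core lay at -0.11 and the cap at 0.11.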

How the data were processed

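RNA of 6 cultures, 3 NFFSE and 3 NFFS, was hybridised to Affymetrix Mouse Genome 430 2.0 arrays. For 45101 probe sets the authors deposited linear intensity values, made with MAS5 per the labels (its version is not given in the sources used here). A check of the values showed that each array had been scaled to a mean of 500 after the lowest and highest 2% were set aside. Scanner values were not used here, so the steps before these values, such as background correction, are as the authors left them. The number of arrays limits the precision.

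Control probe sets (64) were left out, and probe sets with several symbols (932) or not listed with a gene (9160) were given no name. From 34945 one-symbol probe sets, 18193 genes were measured, each by the one with the highest mean signal. The linear model was limma's, version 3.58.1 under R 4.3.3, on log2 signals (lmFit, then eBayes with a trend of variance on intensity), the contrast being NFFSE minus NFFS. Adjusted p-values follow Benjamini and Hochberg over the 18193 genes, a call needs a value under 0.05, and the fit was tested on simulated data. Folds are antilogs of log2 differences, and p-values of probe sets are adjusted over all probe sets that are not controls. Dim means that both group means lay below 69.61, the 40th percentile, and background is any signal up to 22.7, the maximum of 18 control values for a transcript that mouse cells lack. The methods name a two-tailed test in Excel for P values in general (the methods' t-test) and no threshold for the arrays.

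The proteasome genes and all gene lists were chosen with earlier results of these data known. Values on every array are given for the immunoproteasome genes, their counterparts, the activators and the inhibitor, and for up to 4 genes with the smallest p of each other class, and up to 4 genes of each list of related genes are named; others were named after their values were seen. The replicate number was used only as a block in an alternative, since the labels do not say that a number marks the same isolation in both media. Symbols came from the platform annotation and were checked in a RefSeq table, and promoter windows are from RefSeq (GRCm38.p6).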

Additional observations from a re-analysis of the deposited data

How the results depend on the processing

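The alternatives were arrays centred on their medians, quantile normalization, the mean of all probe sets of a gene, a floor of 32 or an addition of 16 before log2, dim genes left out, no intensity trend, the methods' t-test, the replicate number as a block and each array left out; fitting single probe sets was chosen after seeing the data. Against 9 higher and 4 lower of the 49 genes, the calls were 19 and 2 with centred arrays and 4 and 2 with the methods' t-test. There were 3 higher without the trend and 5 higher with the mean of probe sets. Leaving out an array gave 3 to 16 higher and 3 to 6 lower. With the replicate number as a block the counts were 10 and 5, since Psmd7 (limma adjusted p = 0.0477) and Psma8 (0.0411) were added, the cap had 7 calls and Faf1 was not called (0.0528). The labels do not settle the pairing. Deviations of same-numbered arrays from their group means correlated at 0.0633, 0.0418 and 0.0369, against -0.039 to -0.0034 for other pairs. The deviations within a medium cancel out for each gene, so positive correlations bring negative ones with them. Each array correlated best with its own number, but too weakly to settle the pairing. Of the values computed for single genes under the alternatives, 627 kept their direction and side of the threshold, 47 lost the call, 25 gained one and 34 changed sign. The precision of 3 arrays a medium, and the authors' scaling, limit differences of the size seen in the core.

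Class medians moved with centred arrays to 0.44 (ATPases), 0.52 (non-ATPase subunits), 0.60 (activators and inhibitor), 0.29 (beta ring) and -0.22 (matched by spelling), and with quantile normalization to 0.12 (ATPases) and -0.067 (beta ring). With the mean of probe sets they were -0.27 (activators and inhibitor), -0.17 (alpha ring), -0.054 (assembly chaperones), -0.58 (immunoproteasome) and -0.51 (matched by spelling). The median of Psma8 and Psmb11, -0.93, was -0.039 with the floor, -0.26 with 16 added and -1.31 to -0.50 with an array left out.

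The mean of probe sets weighs dim ones like bright ones. Of the genes whose sign turned with it, Psma1, Psma5, Psma6, Psmd2, Psmd7, Psmd9, Psmd13 and Psme4 had dim ones. Other genes whose sign did not turn had dim ones too, such as Psmb8, Psmc1, Psmd11 and Psme3. For Psma6 a dim probe set differed by -3.145, and for Psmd2 the only other probe set was dim and differed by -0.93. Signs turned as follows, and the cause was not tested. With the mean of probe sets the differences were -0.30 for Psma1, -0.22 for Psma3, -0.17 for Psma5, -0.97 for Psma6, 0.13 for Psmb1, -0.13 for Psmc6, -0.075 for Psmd13, -0.30 for Psmd2, -0.13 for Psmd7, -0.28 for Psmd9, -0.51 for Psme4 and -0.65 for Psmf1. With quantile normalization they were -0.011 for Psma2, -0.065 for Psma3, -0.15 for Psma5, -0.21 for Psma6, -0.070 for Psmb2, -0.16 for Psmb4, -0.067 for Psmb6, -0.0044 for Psmb7, -0.038 for Psmc2, -0.011 for Psmd6 and 0.015 for Psmg1, and with centred arrays 0.19 for Psmb1, 0.16 for Psme1 and 0.18 for Psmg1. Single probe sets gave -0.69 for Psma1, -0.63 for Psma3, -0.87 for Psma6, 0.22 and 0.18 for Psmb1, -0.38 and -0.26 for Psmc6, -0.029 for Psmd13, -0.68 for Psmd7, -0.95 and -1.45 for Psme4, and -1.08, -0.95 and -0.86 for Psmf1. With an array left out, the differences ran from -0.041 to 0.20 for Psma5, -0.12 to 0.20 for Psma6, -0.13 to 0.13 for Psmb1, -0.0077 to 0.057 for Psmb2, -0.071 to 0.18 for Psmb6 and -0.058 to 0.072 for Psmg1.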
